A study of Aedes aegypti and Anopheles culicifacies with 47 samples.

Results

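The 100 *Aedes aegypti* genes described here had many reads in brain and very few in olfactory tissue. They were chosen from their measured levels. A gene was kept when its mean over 8 olfactory libraries was under 2 CPM (counts of a gene scaled to 1000000 reads assigned to genes in that library). The genes kept were then ranked by their mean over 8 brain libraries, and the first 100 of the 19399 genes with readable counts in every library were taken. The rule leaves out 7 gene IDs. Since tissue levels chose the genes, every contrast between the tissues below is a description without a test. The clock time of dissection was not used in the choice, and only clock times were compared by a test.

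The animals were wild-type adult females, 5 to 6 days old and from the same cohort, reared at 27 ± 2 °C in air of 80% humidity. Light and dark lasted 12 h each. Brain was dissected in one set of samples and olfactory tissue in the other, at 6am, 12pm, 6pm and 12am. The olfactory samples combine the antennae, the palps, the labium and the proboscis. Brain had 2 libraries at each clock time: replicates 1 and 3 at 6am, 6pm and 12am, and replicates 1 and 2 at 12pm. Olfactory tissue had replicates 1 and 3 at 6am, 1 and 2 at 12pm, 1, 2 and 3 at 6pm, and replicate 3 alone at 12am. The series describes its replicates as biological, and how many animals each library pooled is not given in the sources used here. The study was set up to follow the daily rhythm of both tissues in a mosquito that bites by day.

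In an insect, the cell bodies of the olfactory sensory neurons lie in the antennae and mouthparts and send their axons to the brain. The brain holds the central neurons and their glia, among them the clock neurons and the neurosecretory cells. Transcripts of genes used only by central neurons can therefore be present in brain RNA and nearly absent from RNA of the appendages. In bulk tissue, fewer cells of a type and less RNA per cell cannot be told apart.

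The files give each gene by its AAEL identifier and do not pair identifiers with names. None of the identifiers was matched in the reference table (0 of 19399 genes against 19623 entries), so no gene name, product, length or sequence is given. The labelled tissues could not be checked against marker genes for the same reason. Without gene lengths, the order of genes by CPM mixes length with level. A higher CPM of one gene than of another need not be a higher level.

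Reads assigned to genes numbered 5072614 to 10202123 per brain library and 853349 to 6558092 per olfactory library. The reach of an olfactory library follows from that depth: 1 read was worth 1.17 CPM in the shallowest, at 6pm replicate 2, and 0.152 CPM in the deepest, at 6pm replicate 3. The 12pm replicate 2 olfactory library was the second shallowest, with 0.878 CPM per read. Intervals and floors on such counts cover counting error only.

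Many genes met the olfactory limit, but few of them had a high CPM in brain. Of the 19399 genes, 9823 (50.6%) had an olfactory mean under 2 CPM, and 4871 of those had no read in any brain library. A brain mean of at least 1 CPM was reached by 866 of them, at least 5 CPM by 264, at least 10 CPM by 125, at least 20 CPM by 49 and at least 50 CPM by 10. The highest brain mean under the limit was 90.3 CPM. Of the 1961 genes with a brain mean of at least 100 CPM, 0 were under the limit. Of the 3370 genes with at least 50 CPM, 0.297% were.

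The 100 members had brain means of 11.9 to 90.3 CPM (median 19.9) and olfactory means of 0 to 2.00 CPM (median 1.29). The ratio of the tissue means was 6.57 to 111 (median 17.8) over the 99 members with an olfactory read. It was at least 50 in 7 members and under 10 in 13. Each member had 734 to 5877 reads over the brain libraries and 0 to 59 (median 29) over the olfactory libraries. The olfactory values thus rest on few reads, and 76 members had no read in at least 1 olfactory library.

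The members together held 0.192 to 0.349% of the reads in genes in brain libraries and 0.00850 to 0.0218% in olfactory libraries. Their summed level was 2635 ± 508 CPM in brain and 127 ± 44.3 CPM in olfactory tissue (SD, n = 8 each). The brain sum was lowest at 6pm replicate 3 (1919 CPM) and highest at 12pm replicate 2 (3485 CPM), and no brain sum came near an olfactory one. The olfactory sum was 218 CPM at 12pm replicate 2 and 85.0 to 160.3 CPM in the other 7 libraries. That library was the highest olfactory library for 41 of the members, and the share of all genes for which it was highest was not counted. It also had the largest share of reads assigned to no gene, 58.2%.

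In 90 of the 100 members, the lowest brain library was above the highest olfactory library. Among all 19399 genes that held for 19.4%. The difference follows from the choice of members, and nothing is read from it. In the other 10 members the tissues overlapped. Of those 10, 7 belong to a group defined by under 5 CPM in brain at 12am replicate 1, described below. The summed CPM of those 7 was also low in brain at 6am replicate 3 (33.5 CPM). The remaining 3 were AAEL011987, AAEL007521 and AAEL003391, named after their values were seen. Each of them had its highest olfactory value, 7.02 CPM, at 12pm replicate 2, and brain values that began at 6.79, 5.66 and 5.01 CPM, each at 6pm replicate 3.

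**Figure D1:**
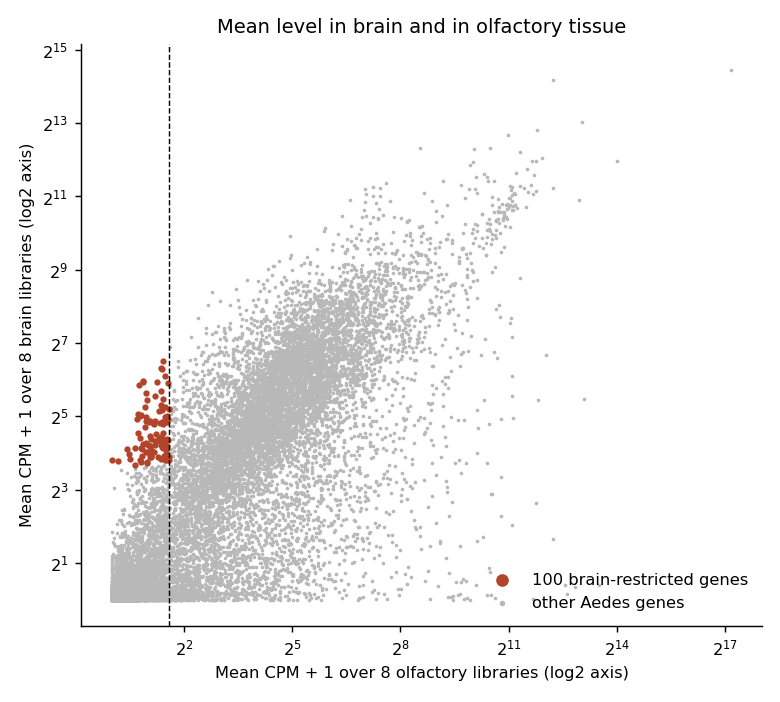
Mean CPM + 1 over 8 brain libraries (vertical, log2 axis) against mean CPM + 1 over 8 olfactory libraries (horizontal, log2 axis), 1 point per gene, members in red and other genes in grey. The dashed line is the olfactory limit of 2 CPM, and the members are the top of the cloud to its left, with brain means of 11.9 to 90.3 CPM.

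The limits cut through a continuous range of values. The last 3 members by brain mean were AAEL025318 at 12.5, AAEL025990 at 12.3 and AAEL022872 at 11.9 CPM. The first 3 genes outside were AAEL020456 and AAEL019991 at 11.8 CPM and AAEL003100 at 11.7 CPM. At the olfactory limit, the members AAEL025133, AAEL019743 and AAEL011480 had olfactory means of 2.00, 2.00 and 1.99 CPM. The nearest genes beyond it, AAEL005770, AAEL005943 and AAEL015294, had 2.01, 2.01 and 2.02 CPM with brain means of 13.9, 19.5 and 12.7 CPM. Genes on both sides of either limit were thus nearly alike in the value that parted them. With TMM-scaled CPM the rule would still choose 63 of the members, and with an olfactory limit of 1 or 5 CPM it would choose 33 or 20 of them.

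The leading members by brain mean had far higher CPM in brain libraries than in olfactory ones, with 1 exception given below. AAEL019519 had the highest mean, with a lowest, median and highest value of 52.7, 92.7 and 115.2 CPM in brain, against 0.464, 1.40 and 4.45 CPM in olfactory tissue. AAEL022087 had 65.4, 76.9 and 114.5 CPM in brain, against 0, 1.26 and 5.05 CPM in olfactory tissue. AAEL000254 had 64.2, 74.8 and 99.9 CPM in brain, against 0, 1.39 and 4.12 CPM in olfactory tissue. In all 3 the lowest brain library stood more than 10 times above the highest olfactory library, and the ratios of the means were 53.7, 50.9 and 47.3.

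The next members by brain mean had means of 68.1, 61.5 and 60.8 CPM in brain. AAEL001478 had 34.9, 68.3 and 95.6 CPM in brain, against 0, 1.47 and 4.18 CPM in olfactory tissue. AAEL012106 had 35.1, 52.7 and 109.2 CPM in brain, against 0, 0.827 and 1.76 CPM in olfactory tissue. AAEL021576 had 48.2, 60.6 and 71.4 CPM in brain, against 0, 0.833 and 1.68 CPM in olfactory tissue. The last of these varied little over the brain libraries, while AAEL012106 stood apart in 2 of them, as given below.

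Among the rest of the first 10, the olfactory median was highest in AAEL024132 and lowest in AAEL008055. AAEL024132 had 49.4, 59.8 and 71.0 CPM in brain, against 0, 1.43 and 2.32 CPM in olfactory tissue. AAEL002684 had 30.2, 57.0 and 84.4 CPM in brain, against 0.722, 1.40 and 4.39 CPM in olfactory tissue. AAEL008055 had 25.7, 46.1 and 124.3 CPM in brain, against 0, 0.329 and 2.63 CPM in olfactory tissue. Its ratio of means, 83.9, was the highest of the first 15 members. AAEL002579 had 28.0, 48.1 and 74.9 CPM in brain, against 0.457, 1.18 and 5.27 CPM in olfactory tissue.

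Ranks 11 to 15 were taken by AAEL000630, AAEL024942, AAEL006351, AAEL024740 and AAEL003131, with brain means of 48.5, 46.4, 43.1, 42.7 and 38.8 CPM. Their olfactory means were 0.915, 1.28, 1.67, 0.954 and 1.57 CPM. AAEL006351 was the only one of the first 15 in which the tissues overlapped: it had 0.235, 27.3 and 149 CPM in brain, against 0, 0.936 and 7.22 CPM in olfactory tissue.

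**Figure D2:**
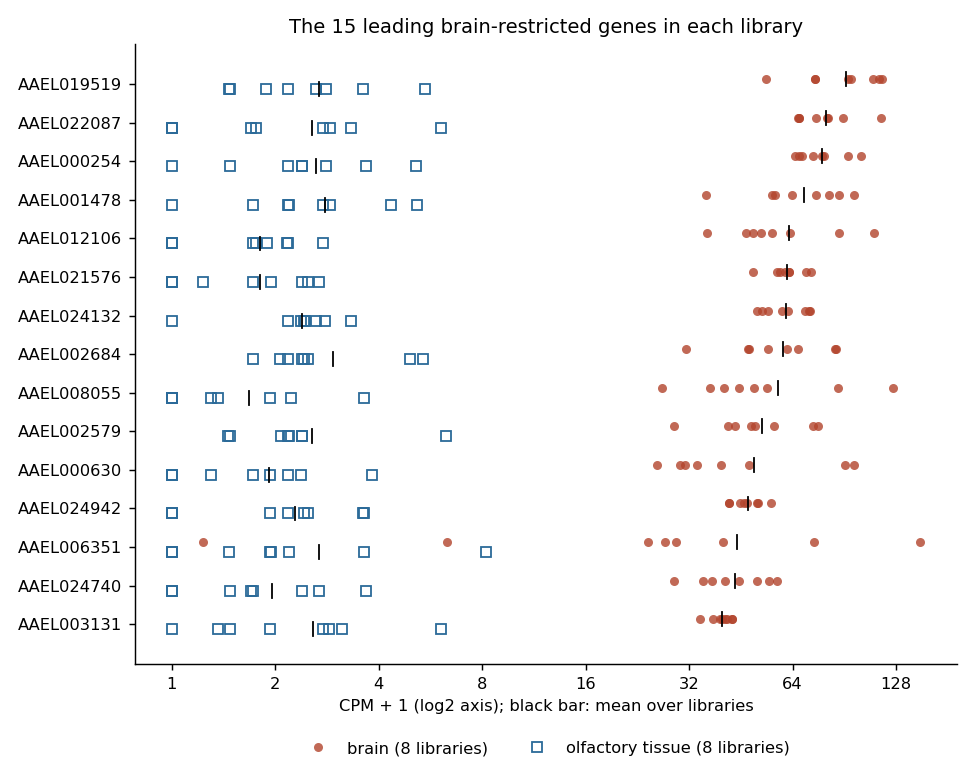
CPM + 1 (log2 axis) of the 15 members with the highest brain means in each of 8 brain libraries (filled red points) and 8 olfactory libraries (open blue squares), with a black bar at the mean of each tissue. The points of the tissues are apart in 14 of the 15 genes, and 2 brain libraries of AAEL006351, at 0.235 and 5.32 CPM, lie among its olfactory values.

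A few members outside the first 15 had the fewest olfactory reads. AAEL022762 was the only member with no olfactory read: it had 849 reads in brain, at 9.86, 12.0 and 18.2 CPM (lowest, median and highest library), and 0 in all 8 olfactory libraries. Its summed brain level was 13.6 CPM, beside a floor of 3 reads over the summed olfactory libraries, or 0.129 CPM. The gene was picked for its count of 0, so no bound on its ratio is read from these values. AAEL023301 had 820 brain reads and 5 olfactory reads, with the olfactory reads all at 6pm replicate 3 and 12am replicate 3. Its ratio of means was 111, and its ratio over the summed libraries, which weights each library by its depth, was 61.1 (13.1 against 0.215 CPM). On that summed scale the leading members AAEL012106 and AAEL008055 had higher ratios, 84.7 and 84.6. AAEL022762 and AAEL023301, with AAEL026383 and AAEL027926, made up the 4 members under 1 CPM in every olfactory library, and were named for that after their values were seen. AAEL022762 and AAEL023301 lie near an overwritten stretch of text in at least 1 of the files, as 16 of the 100 members do.

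The members differed more between brain libraries than other genes in the same range of brain CPM did. The coefficient of variation (CV, SD over mean) over the 8 brain libraries had a median of 29.9% in the members (quartiles 18.6 and 45.8%, range 5.04 to 112%). In the 4288 other genes with brain means between those of the lowest and highest member it had a median of 12.6% (quartiles 9.23 and 18.5%). A CV of at least 50% was found in 21% of the members and 5.78% of the other genes, and a CV under 15% in 15% and 63.6%. The members' brain means were lower, with a median of 19.9 CPM against 33.0 CPM in the other genes, but counting error alone would give median CVs of 7.86% and 6.23%. Among genes with brain means under 20 CPM, the median CV was 27.4% in 51 members and 15.5% in 1027 other genes. Among those with at least 20 CPM, it was 30.6% in 49 members and 11.8% in 3261 other genes.

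Libraries of the same clock time differed as well. The median absolute difference on the log2(CPM + 1) scale between the 2 libraries of a time was, in members and in other genes, 0.32 and 0.18 at 6am, 0.36 and 0.16 at 12pm, 0.77 and 0.27 at 6pm, and 0.39 and 0.19 at 12am. The difference between the means of 6pm and 6am was smaller than each of these in the members, 0.19, and was 0.14 in other genes. Between 12am and 12pm it was 0.27 in the members and 0.11 in other genes. In the members and in the other genes alike, both medians were below that of every pair of replicates. A mean of 2 libraries also varies less than 1 library.

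**Figure D3:**
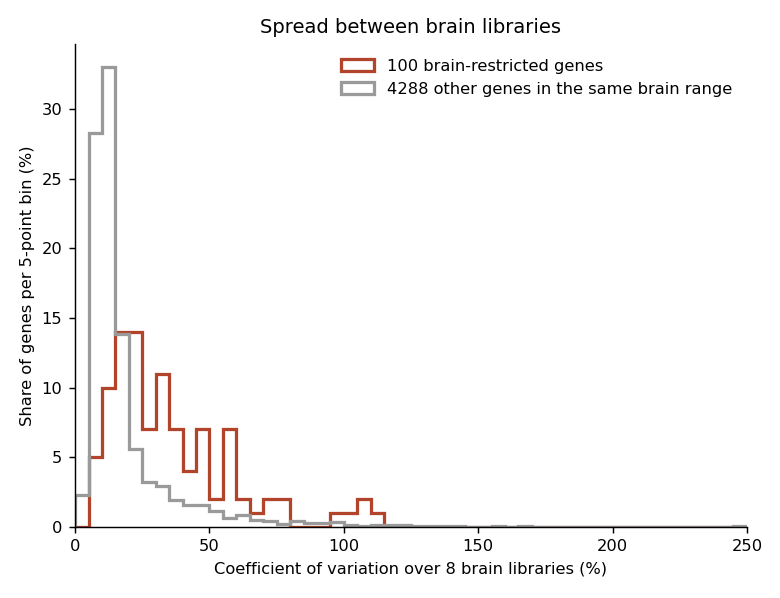
Share of genes (percent, vertical) by coefficient of variation over 8 brain libraries (percent, horizontal, in bins of 5 points), for the 100 members (red) and 4288 other genes in the same range of brain means (grey). The members reach further to the right: their median is 29.9%, against 12.6% in the other genes.

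The spread between brain libraries took a few recurring forms, which were defined after the values were seen. In 42 members the highest 2 brain libraries were 12pm replicate 2 and 6pm replicate 1, which was so in 8.40% of the other genes. In 24 members the highest library was one of the 3 replicate 3 libraries, a smaller share than the 48.3% of the other genes. A group of 7 had under 5 CPM at 12am replicate 1, and the share of the other genes with such a value was not counted. The other 27 members fell under none of these forms.

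The values of those 42 members are given as a description, since the libraries in which they were highest chose them. Their summed CPM over the brain libraries was 1170 and 894 at 6am (replicates 1 and 3), 984 and 1907 at 12pm (replicates 1 and 2), 1715 and 593 at 6pm (replicates 1 and 3), and 1131 and 863 at 12am (replicates 1 and 3). The lowest of these sums and the second highest both belonged to 6pm. In olfactory tissue the same 42 genes summed to 136 CPM at 12pm replicate 2 and to 29.3 to 70.4 CPM in the other 7 libraries. Of the 100 members, 61 were highest in one of these 2 brain libraries and 54 were lowest at 6pm replicate 3, against 24.4% and 25.1% of the other genes. These 2 libraries were the deepest of brain, with 10202123 and 9970202 reads in genes. The library at 6pm replicate 3 was the second shallowest, with 6182802. The shallowest, 6am replicate 3 with 5072614, had a higher sum of the 42 genes, 894 CPM. The part of depth in the pattern was not tested.

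AAEL008055 had the widest spread of this form among the leading members. Here and below, the lower replicate number comes first at each clock time. It had 52.9 and 48.5 CPM at 6am, 35.9 and 124.3 CPM at 12pm, 85.7 and 25.7 CPM at 6pm, and 39.5 and 43.7 CPM at 12am. AAEL012106 had 61.8 and 48.1 CPM at 6am, 50.8 and 109.2 CPM at 12pm, 86.4 and 35.1 CPM at 6pm, and 54.6 and 45.8 CPM at 12am. Within 12pm and within 6pm the 2 libraries of each gene differed more than the means of any clock times did. AAEL019519, the member with the highest brain mean, had 91.7 and 113.4 CPM at 12pm and 115.2 and 52.7 CPM at 6pm. Over the 8 libraries, 25 other members had a correlation of at least 0.9 with it and 9 had one of at most -0.5 (log2(CPM + 1), a description of libraries that share depth and handling). The share of all genes with a correlation of at least 0.9 was not counted.

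The 15 members with a CV under 15% were steady over all 8 libraries. Their summed level was 409.8 to 469 CPM, lowest at 12pm replicate 1 and highest at 6am replicate 3. AAEL007831, named like AAEL028205 after its values were seen, varied least, with 26.5 to 30.2 CPM in brain (27.9 ± 1.41, SD, n = 8) and a CV of 5.04%. AAEL003131 had 33.5 to 41.6 CPM (38.8 ± 2.72). AAEL024942 had 40.7 to 54.5 CPM (46.4 ± 4.73) and AAEL021576 had 48.2 to 71.4 CPM (60.8 ± 7.21). Their sum was 442 CPM at 12pm replicate 2, 436 CPM at 6pm replicate 1 and 430.2 CPM at 6pm replicate 3. A small spread over these libraries is what chose the 15, and 1 of them, AAEL028205, is also among the 42.

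**Figure D4:**
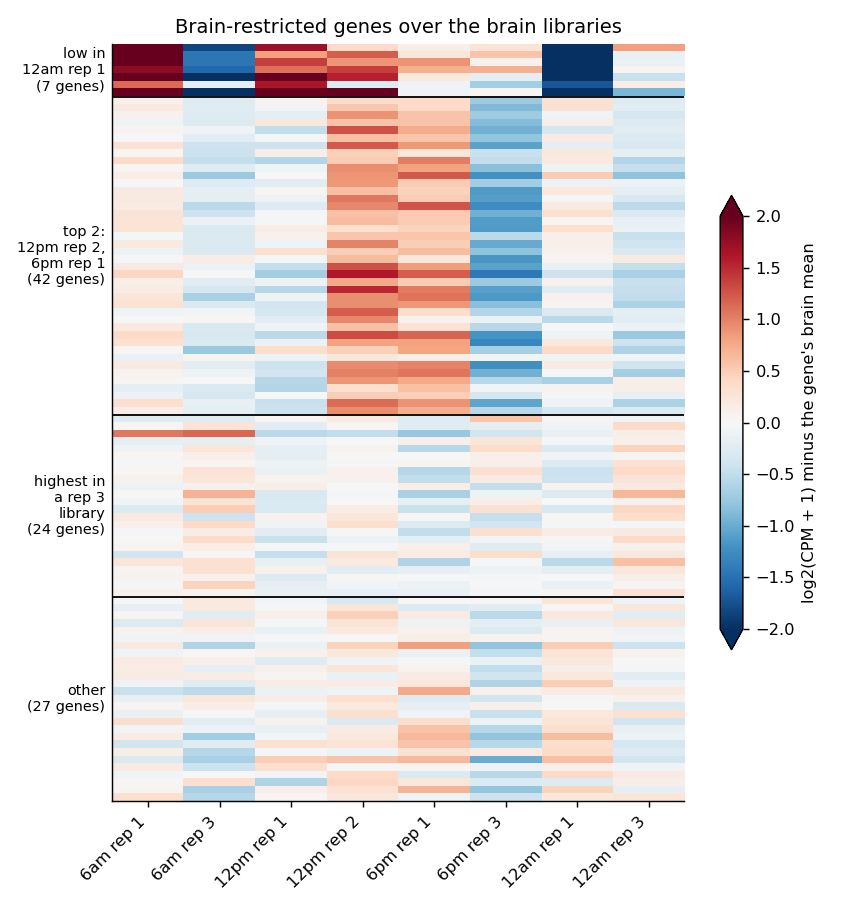
Heat map of the 100 members (rows, in 4 groups by the form of their spread) over the 8 brain libraries (columns), coloured by log2(CPM + 1) minus the gene's mean over brain, with colours held at -2 and 2. The 42-gene group is red at 12pm replicate 2 and 6pm replicate 1 and blue at 6pm replicate 3, and the 7-gene group is blue at 12am replicate 1.

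The 7 genes with under 5 CPM at 12am replicate 1 formed the most variable group, with CVs of 72.8 to 112%. The lowest value of any other member in that library was 7.97 CPM. Their summed CPM was 515.9 and 33.5 at 6am (replicates 1 and 3), 310.7 and 218 at 12pm (replicates 1 and 2), 133 and 121 at 6pm (replicates 1 and 3), and 4.34 and 111 at 12am (replicates 1 and 3). The 2 libraries of 6am and of 12am thus stood more than 10 times apart. In olfactory tissue the 7 summed to 33.9 CPM at 6am replicate 1, 10.9 CPM at 6am replicate 3, 12.3 CPM at 12pm replicate 2, and 1.37 to 3.02 CPM in the other 5 libraries. The brain library and the olfactory library with the highest sums were both labelled 6am replicate 1.

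AAEL006351 had 149 and 5.32 CPM at 6am, 73.0 and 28.3 CPM at 12pm, 23.4 and 26.2 CPM at 6pm, and 0.235 and 39.1 CPM at 12am. AAEL013532 had 101 and 5.91 CPM at 6am, 32.3 and 42.9 CPM at 12pm, 21.1 and 27.2 CPM at 6pm, and 0.469 and 16.1 CPM at 12am. AAEL029034 had 93.2 and 5.32 CPM at 6am, 43.9 and 30.7 CPM at 12pm, 31.1 and 17.3 CPM at 6pm, and 0 and 14.7 CPM at 12am. In each of these, 6am replicate 1 was the highest of all 8 libraries and 12am replicate 1 the lowest.

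AAEL019996 had 61.4 and 5.13 CPM at 6am, 38.1 and 46.2 CPM at 12pm, 28.6 and 28.6 CPM at 6pm, and 0 and 17.8 CPM at 12am. AAEL002656 had 40.0 and 0.197 CPM at 6am, 37.7 and 33.4 CPM at 12pm, 6.72 and 7.28 CPM at 6pm, and 0 and 3.30 CPM at 12am. The other two, AAEL006424 and AAEL005596, had 0.352 and 3.28 CPM at 12am replicate 1 and reached 43.5 and 42.2 CPM at 12pm replicate 1. Over the 8 brain libraries the other 6 correlated with AAEL006351 at 0.853 to 0.966 (Pearson, log2(CPM + 1)), with no p given because they were grouped by these values.

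Genes outside the 100 varied in the same way. Of the 8798 genes with a brain mean of at least 2 CPM, 27 others correlated with AAEL006351 at 0.9 or more over the brain libraries, and 3 of them were members. The remaining 24 had brain means of 2.04 to 294.7 CPM, and 22 of them had an olfactory mean of at least 2 CPM and so were beyond the limit. Their summed level in brain was 5029 CPM at 6am replicate 1, 325 CPM at 6am replicate 3 and 48.3 CPM at 12am replicate 1. In olfactory tissue it was 1874 CPM at 6am replicate 1 and 146 to 528 CPM in the other 7 libraries. Which cells these transcripts came from was not tested, since no marker gene could be matched. Without the 7 genes, the other 93 members summed to 2454 ± 462 CPM in brain and 118 ± 43.9 CPM in olfactory tissue (SD, n = 8 each).

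Whether the members followed the clock was asked of the brain libraries in edgeR, by its quasi-likelihood F-test over the 4 clock times with Benjamini-Hochberg adjustment over the 9578 genes tested. All 100 members passed the filter on low counts. No member was called at an adjusted p under 0.05, and of all genes 1 was (0.0104%). At an unadjusted p under 0.05 there were 2 members, AAEL000630 and AAEL010105, and 1.37% of all genes. DESeq2 called 1 member, AAEL000630, and 17 of all genes.

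In 6pm against 6am, 0 members and 0 of all genes (0%) passed the adjusted threshold in either direction in edgeR. At an unadjusted p under 0.05, 2 members were higher at 6pm, against 2.65% of all genes, and 2 were lower, against 1.15%. Both 6pm libraries lay above both 6am libraries in 8 members, against 15.9% of all genes, and below them in 15 members, against 17.5%. The median fitted log2 difference was 0.0046 over the members and 0.0011 over all genes, with 50 of the 100 members and 50.2% of all genes above 0. Leaving out 1 library moved the members' median to -0.47 (6pm replicate 1 left out), 0.27 (6pm replicate 3) or 0.26 (6am replicate 1).

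In 12am against 12pm, 0 members and 1 of all genes, which was higher at 12am (0.0104%), passed the adjusted threshold in edgeR. At an unadjusted p under 0.05, 1 member was higher at 12am (0.595% of all genes) and 1 was lower (0.814%). Both 12am libraries lay above both 12pm libraries in 7 members, against 13.4% of all genes, and below them in 11, against 11.8%. The median fitted log2 difference was -0.20 over the members and -0.0042 over all genes, and 37 of the 100 members and 49.1% of all genes were above 0. The members' median was 0.065 without 12pm replicate 2, the library in which 40 of the members were highest, so its sign depends on the setting.

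AAEL000630 was the member with the smallest p. It had 90.1 and 95.8 CPM at 6am, 29.1 and 30.1 CPM at 12pm, 24.9 and 32.8 CPM at 6pm, and 38.7 and 46.7 CPM at 12am. Both 6am libraries stood far above the other 6, and the 2 libraries of each time were close together, so the replicates of 1 time differed less than 6am did from the other times. Its highest library was 6am replicate 3, which counts it among the 24 members highest in a replicate 3 library. The log2 difference of 6pm against 6am was -1.65 (SE 0.19), with an unadjusted p of 6.99e-05 and a Benjamini-Hochberg adjusted p of 0.350 in edgeR. For any difference between clock times, the unadjusted p was 0.000136 and the adjusted p 0.649 in edgeR. DESeq2 gave a log2 difference of -1.68 with an adjusted p of 1.64e-08 in 6pm against 6am, and an adjusted p of 7.53e-12 for any clock time. Over all alternatives run, the difference of 6pm against 6am was -1.91 to -1.45 and its adjusted p 1.64e-08 to 1.00, with DESeq2 alone past the threshold. The difference of 12am against 12pm was 0.52 (SE 0.18), with an unadjusted p of 0.0269 and an adjusted p of 1.00 in edgeR.

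The other members with an unadjusted p under 0.05 had smaller or less even differences. AAEL010105 had 28.7 and 17.6 CPM at 6pm, against 11.9 and 11.2 CPM at 6am, a log2 difference of 1.03 (SE 0.24) with an adjusted p of 1.00 in edgeR. Its 6pm libraries both exceeded its 6am libraries, but the difference rested more on replicate 1. AAEL024942 had 49.4 and 54.5 CPM at 6pm, against 40.7 and 40.8 CPM at 6am, a log2 difference of 0.38 (SE 0.12) with an adjusted p of 1.00 in edgeR. AAEL011318 had 14.1 and 13.1 CPM at 6pm, against 18.6 and 23.3 CPM at 6am, a log2 difference of -0.58 (SE 0.20) with an adjusted p of 1.00 in edgeR. In both genes the 6pm and 6am libraries did not overlap.

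AAEL001867 was the only member with an unadjusted p under 0.05 that was lower at 12am than at 12pm. It had 11.3 and 14.1 CPM at 12am, against 14.4 and 33.6 CPM at 12pm, a log2 difference of -0.93 (SE 0.37) with an adjusted p of 1.00 in edgeR. Only the 12pm replicate 2 library stood clearly apart, and without it the log2 difference was -0.21.

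**Figure D5:**
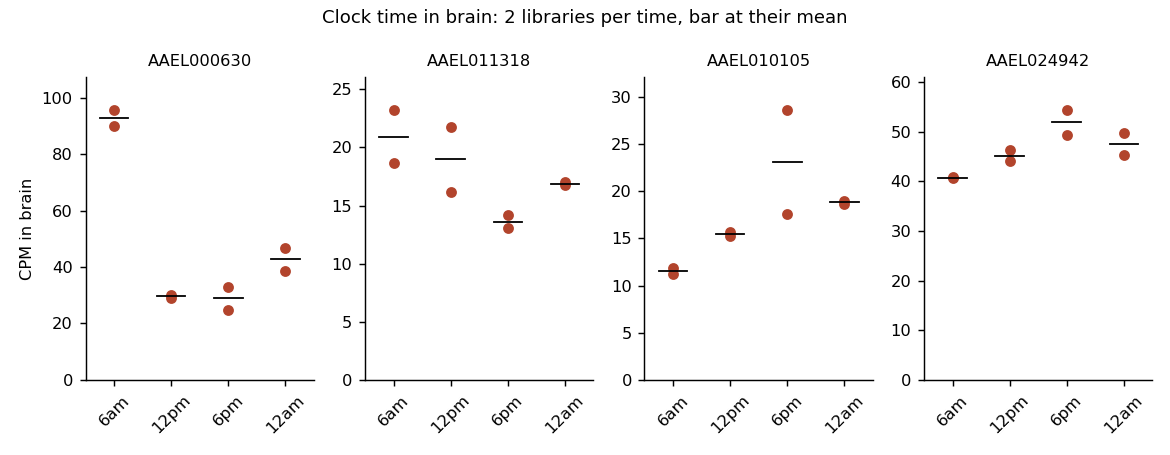
CPM in brain at 6am, 12pm, 6pm and 12am of the 4 members with an unadjusted p under 0.05 in 6pm against 6am, with 1 point per library (2 per time) and a bar at their mean. AAEL000630 has 90.1 and 95.8 CPM at 6am and 24.9 to 46.7 CPM at the other times, and the replicates of AAEL010105 at 6pm lie far apart, at 28.7 and 17.6 CPM.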

How the data were processed

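The authors deposited raw read counts per gene, 1 headerless table per library. Per the labels, total RNA was extracted with TRIzol and libraries were made with the NEBNext Ultra II kit. The submitters' processing notes name bcl2fastq, FastQC, STAR and HTSeq. Versions, genome build, annotation release, strand setting and treatment of reads with several positions are not named in the sources used, so counts of overlapping, antisense and near-identical genes are uncertain. Of 24 *Aedes* samples, 16 were analysed, and the other 8 and the *Anopheles* samples were not used here. Samples were grouped by their titles.

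The 16 files held 44 overwritten stretches of text, 64 to 224 characters long. Lines touched by them were treated as missing, which left out 405 of 19804 genes (2.05%), none missing in more than 1 library. A further 3060 genes lie near a stretch, where an altered digit could go unseen, and an alternative left them out. Lines that name no gene held 34.4 to 42.0% of the reads in brain and 29.9 to 58.2% in olfactory libraries, and were kept out of totals and tests.

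CPM values use each library's reads in genes. Brain clock times were fitted with edgeR 4.0.16 (R 4.3.3, limma 3.58.1) by its robust quasi-likelihood F-test after filterByExpr and TMM scaling, with contrasts from the same fit, Benjamini-Hochberg adjustment over all genes tested and a threshold of 0.05. An SE was taken as the absolute log2 difference divided by the root of its F value. Alternatives were DESeq2 1.42.0, its size factors, plain totals, no low-count filter, a minimum mean of 50 counts, the replicate block, 24 h cosine and sine terms, leaving out genes near a stretch, and leaving out each library. Tables and figures used Python 3.11.15, numpy 2.4.6, pandas 2.3.3 and matplotlib 3.10.9.

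Members and lists were chosen with earlier results of these data known. With identifiers unnamed, the genes named are the 15 members with the highest brain means, those at the limits of the rule and at most 2 per direction and test, and others are said to be named after their values were seen. The lists of products and cell type markers could not be applied.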

Additional observations from a re-analysis of the deposited data

Results flagged for a closer look

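In 24 members given by library, the highest and the lowest of the 8 brain libraries were compared with the nearest other library, relative to the whole range. In 4 of them the highest library stood apart. Chance flags about 1 in 20 groups that are not picked by their values, a rate that does not apply to these 24. Several of them were printed for their spread or their p, and some vary together. The 8 libraries span 4 clock times, and whether time or the single library sets the value was not tested. AAEL013532 reached 101 CPM and AAEL029034 93.2 CPM, both at 6am replicate 1, and both belong to the 7 genes with under 5 CPM at 12am replicate 1. AAEL010105 reached 28.7 CPM at 6pm replicate 1. AAEL001867 reached 33.6 CPM at 12pm replicate 2.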

How the results depend on the processing

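Which genes are members depends on the limits of the rule: of the 100, the rule would still choose 63 with TMM-scaled CPM, 33 with an olfactory limit of 1 CPM, 20 with 5 CPM, 16 with the limit on the highest olfactory library, and 69 with medians. Leaving out 1 library kept 77 (without olfactory 12pm replicate 2) to 99. In settings chosen after seeing the data, replicate 1 libraries alone would choose 74 of them, replicates 2 and 3 alone 78, and both 56 genes in common. The 7 and 9 libraries of these settings also chose the 100, so part of the overlap with the 100 is built in.

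For any clock time, DESeq2 called 17 of all genes and 1 member, where edgeR called 1 and 0. In 6pm against 6am DESeq2 called 20 of all genes (16 higher, 4 lower) and 1 member, where edgeR called 0 and 0 (364 and 4 at an unadjusted p under 0.05). The 24 h cosine and sine terms called 0 of all genes (290 at an unadjusted p under 0.05). Leaving out 1 library gave 0 to 1 of all genes, with 0 without either 6am or either 12pm library, and 0 members throughout. At an unadjusted p under 0.05 that was 107 to 349 of all genes and 2 to 11 members, the 11 beside 327 of 9861 genes without 6pm replicate 1. The members' median log2 difference ranged from -0.47 to 0.27 in 6pm against 6am and from -0.37 to 0.065 in 12am against 12pm, with 0.065 without 12pm replicate 2. The cause of these shifts was not tested.

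Brain libraries of the same replicate number deviated from their time's mean with correlations of -0.14 to 0.49 over 9 pairs. Of these 8 were over 0.1, but only 6 values are distinct, since 2 libraries of a time mirror each other. The 1 pair under 0.1 was 12pm replicate 1 with 6pm replicate 1, at -0.14. The main fit had clock time as its only factor and did not pair the samples by number. Whether the numbers do pair them was not tested, and the other values are positive. With the replicate block, edgeR called 0 of all genes for any clock time (343 at an unadjusted p under 0.05) and 0 members (4 at an unadjusted p). In 6pm against 6am it called 0 of all genes and 0 members (832 and 6 at an unadjusted p under 0.05). The members' median in 12am against 12pm was 0.23 with the block, and 75 of the 100 were above 0. Over all genes the median was -0.00028, with 49.9% above 0. Only 12pm has a replicate 2 library in brain, so the block fits that library by itself. The 12pm level in that fit rests on replicate 1 alone, as it does when 12pm replicate 2 is left out. Depth limits the olfactory values, since a member had at most 59 reads there in all.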
